A study of Mus musculus with 16 samples.

Results

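The 9 genes described here encode the kinase ERK1, the kinases that activate ERK, and proteins made in response to ERK activity, several of which damp it. They are Mapk3 (ERK1), Map2k1 and Map2k2 (MEK1 and MEK2), Dusp6, Spry2, Spry4, Spred1, Etv4 and Etv5, chosen by their gene name in the scanner files of an Agilent mouse array. All 9 were on the array, with 14 distinct probes of the 55681 there, and all 9 were among the 20317 genes tested of 34836 gene names. Every one of the 14 probes was well above background on all 16 arrays.

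The arrays carried RNA of myoblasts derived from satellite cells, the muscle stem cells that lie between a muscle fiber and its basal lamina, from male C57Bl/6J mice aged 11 to 13 weeks by the labels. Dispersed myoblasts grew off the fiber on gelatin-coated plates (1 mouse per replicate), and myofiber-associated myoblasts were cultured on explanted fibers and stripped from them with trypsin (2 mice per replicate). Each culture was taken at 48 and 72 hr after isolation, with 4 arrays per group, and in 1 of the 4 myofiber-associated 48-hr replicates 2 preparations had been pooled. The labels' source name calls all samples myofibers, so the culture was taken from their growth type. No group was treated with a drug or carried a transgene. All 8 dispersed arrays lay on 1 slide and all 8 myofiber-associated arrays on another, so that culture and slide cannot be told apart, and the later time took columns 1 and 2 of each slide and the earlier time columns 3 and 4.

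ERK1 is the last kinase of a cascade in which growth factor receptors activate Ras, Ras recruits Raf, Raf phosphorylates MEK1 and MEK2, and these phosphorylate ERK. In myoblasts the cascade is known for carrying the signal of fibroblast and hepatocyte growth factors that keeps cells dividing and out of differentiation. Active ERK raises the transcription of its own brakes: DUSP6 removes phosphate from ERK in the cytoplasm, the Sprouty proteins (SPRY2, SPRY4) act on the signal between receptor and Raf, and SPRED1 binds neurofibromin and lowers Ras activity. ETV4 and ETV5 are ETS-family transcription factors whose genes are well-known transcriptional targets of fibroblast growth factor signaling through ERK. An array measures the RNA of these genes, not the phosphorylation by which the kinases are switched on.

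A RefSeq promoter (mouse build GRCm38.p6) was at hand for 6 of the 9 genes. ETS factors bind a core of the letters GGAA, and the 250 bases before the start of transcription are given for 3 of the 6 genes, with each GGAA on either strand (read as TTCC on the other) in capitals: Dusp6 and Spry2, the 2 feedback genes that differed most between the cultures in opposite directions, and Etv5, which has 2 listed starts. Dusp6 lies at chr10:99262981-99263230 (plus strand), Spry2 at chr14:105896820-105897069 (minus strand), and the Etv5 stretches at chr16:22439571-22439820 and chr16:22438369-22438618 (minus strand).
Dusp6: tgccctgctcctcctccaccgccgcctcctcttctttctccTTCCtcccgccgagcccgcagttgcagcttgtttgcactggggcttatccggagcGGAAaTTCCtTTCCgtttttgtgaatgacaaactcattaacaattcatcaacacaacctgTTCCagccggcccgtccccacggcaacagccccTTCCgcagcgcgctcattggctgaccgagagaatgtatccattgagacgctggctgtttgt
Spry2: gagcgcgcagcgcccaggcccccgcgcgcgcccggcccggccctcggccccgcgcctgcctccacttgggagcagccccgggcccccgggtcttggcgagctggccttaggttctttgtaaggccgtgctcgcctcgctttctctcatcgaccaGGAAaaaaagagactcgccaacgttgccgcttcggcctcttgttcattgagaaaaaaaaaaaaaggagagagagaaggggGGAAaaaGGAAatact
Etv5, start 1: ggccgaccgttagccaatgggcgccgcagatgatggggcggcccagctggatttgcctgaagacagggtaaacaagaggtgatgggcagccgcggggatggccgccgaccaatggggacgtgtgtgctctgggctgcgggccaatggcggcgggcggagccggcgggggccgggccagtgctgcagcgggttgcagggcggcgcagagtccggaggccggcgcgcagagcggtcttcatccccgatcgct
Etv5, start 2: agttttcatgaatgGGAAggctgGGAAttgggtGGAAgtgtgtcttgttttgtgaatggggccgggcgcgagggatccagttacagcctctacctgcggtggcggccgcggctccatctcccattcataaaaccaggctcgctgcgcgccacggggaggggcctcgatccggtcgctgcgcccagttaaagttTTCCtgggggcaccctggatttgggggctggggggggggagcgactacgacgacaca

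The Dusp6 stretch held 6 matches to GGAA, the Spry2 stretch 3, the first Etv5 start 0 and the second 4, and Map2k1, Map2k2 and Spred1 held 4, 2 and 4. Of 32851 mouse promoters of this length, 93.4% held at least 1, with a median of 3, so that a match to the core alone is common. The longer ETS sequence CCGGAA, present in 12% of promoters, was found in Map2k1 alone of the 6. The cyclic AMP response element TGACGTCA (1.55% of promoters) and the AP-1 sequence TGAGTCA (4.46%) were found in none, both strands searched. The E-box CAGCTG, a form that myogenic factors bind (13% of promoters), was found once, before the first start of Etv5. A match describes the letters and not binding.

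**Figure D1:**
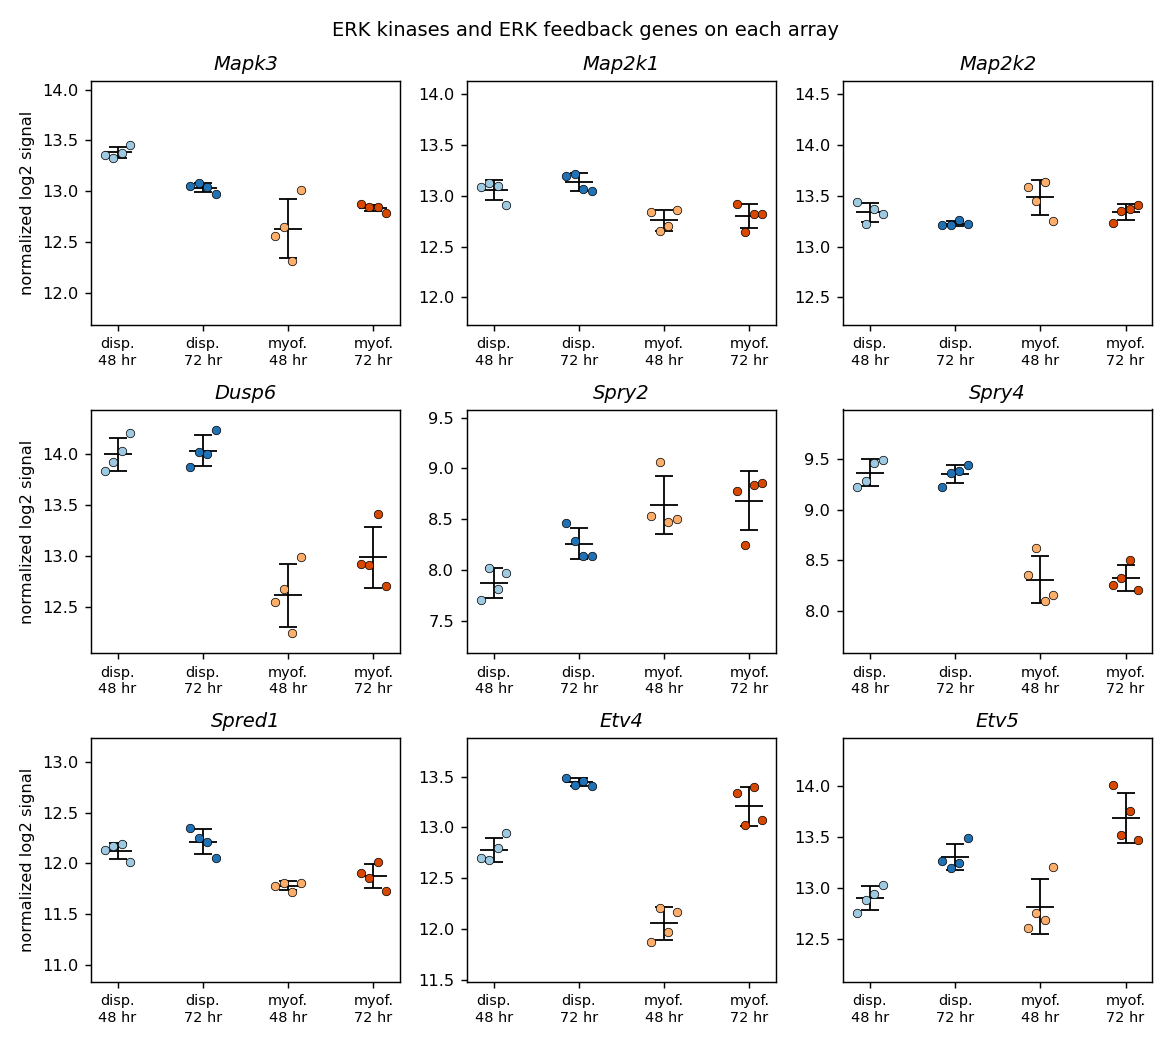
Normalized log2 signal (y axis) of the brightest probe of each gene on every array, in dispersed (disp.) and myofiber-associated (myof.) myoblasts at 48 and 72 hr; points are arrays and bars the mean ± SD of 4. All panels span the same range of log2 units. Etv4 rose in both cultures, while Dusp6 and Spry4 stood lower in both myofiber-associated groups than in both dispersed groups.

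Values below are log2 of the scanner's processed signal after normalization, read from the brightest probe of a gene, so that a difference of 1 is a 2-fold difference. A gene is said to rise or fall where limma's moderated test, two-sided, gave a Benjamini-Hochberg adjusted p under 0.01 over all genes tested. Levels of different genes cannot be set against each other on this scale. The median SD of a gene between the 4 arrays was 0.09 and 0.10 in the dispersed 48- and 72-hr groups, beside 0.22 and 0.18 on the fiber, so that the same change was harder to call on the fiber.

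The first comparison asked how each culture changed from 48 to 72 hr. In dispersed myoblasts 3 of the 9 genes changed, where 13.7% of all genes did: Etv4 and Etv5 rose and Mapk3 fell. In myofiber-associated myoblasts 1 of the 9 changed, Etv4, which rose, where 5.48% of all genes changed. The median change of the 9 genes was 0.08 in dispersed and 0.09 in myofiber-associated myoblasts, beside 0.02 and 0.06 over all genes. At 72 hr no array overlapped the 48-hr arrays for 4 of the 9 genes in dispersed and 2 of 9 in myofiber-associated myoblasts, beside 31.2% and 26.3% of all genes. In RNA of a mixed preparation, fewer cells of a type and less RNA per cell cannot be told apart.

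Among the kinases, only Mapk3 moved past the threshold over time, and only in dispersed myoblasts. Its probe (chr7:133908973-133909032, build mm9) read 13.36, 13.33, 13.38 and 13.46 in the dispersed 48-hr group and 13.05, 13.08, 13.04 and 12.97 a day later. All 4 later arrays lay below all 4 earlier ones. The fall was by 0.35 on the log2 scale (SE 0.05, 1.27-fold, limma adjusted p = 0.00121), and the second probe of the gene fell by 0.41 (SE 0.04, adjusted p over probes 0.00027). When all 16 arrays shared 1 estimate of the spread, the same change no longer passed, at a limma adjusted p of 0.0525.

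On the fiber Mapk3 read 12.56, 12.65, 12.31 and 13.01 at 48 hr and 12.87, 12.84, 12.84 and 12.79 at 72 hr. The array of the pooled preparation was the highest at 48 hr and overlapped the later arrays, which lay between 12.79 and 12.87. The change was 0.20 (SE 0.14, 95% interval -0.12 to 0.53, limma adjusted p = 0.304). The difference between the cultures in this change, dispersed minus myofiber-associated, was -0.55 (SE 0.15, limma adjusted p = 0.0274), short of the threshold. Without the pooled array it was -0.67 with a limma adjusted p of 0.00106. With the second probe the difference was -0.48 (SE 0.14, adjusted p over probes 0.0373).

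In order of its mean level, Mapk3 was highest in dispersed myoblasts at 48 hr (13.38 ± 0.06, SD, n = 4) and at 72 hr (13.03 ± 0.05), followed by myofiber-associated myoblasts at 72 hr (12.84 ± 0.03) and at 48 hr (12.63 ± 0.29). At 72 hr the cultures differed by -0.20 (SE 0.11, limma adjusted p = 0.136), so that these neighbors in the order were not told apart by the fit of all arrays, though their arrays did not overlap.

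Map2k1 and Map2k2, the MEK genes, did not pass the threshold over time in either culture. Map2k1 changed by 0.08 (95% interval -0.08 to 0.23) in dispersed and 0.04 (-0.18 to 0.26) in myofiber-associated myoblasts. Map2k2 changed by -0.11 (-0.23 to 0.01) and -0.14 (-0.39 to 0.10). The second Map2k2 probe gave -0.39 in myofiber-associated myoblasts (SE 0.10, adjusted p over probes 0.0265), larger than the first. The first spans 1067 bases of the genome where the probes of the other genes span 60, and both Map2k2 probes are assigned to the same transcript.

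Etv4 rose in both cultures. Its probe (chr11:101631057-101631116, mm9) read 12.70, 12.68, 12.80 and 12.94 in dispersed myoblasts at the earlier time and 13.49, 13.42, 13.46 and 13.41 at the later. On the fiber it read 11.87, 12.21, 11.97 and 12.17 at 48 hr and 13.34, 13.02, 13.40 and 13.07 at 72 hr. In each culture every 72-hr array lay above every 48-hr array. The rise was 0.66 (SE 0.06, 1.59-fold, limma adjusted p = 0.000259) off the fiber and 1.15 (SE 0.13, 2.22-fold, limma adjusted p = 0.00162) on it. The second probe gave 0.66 and 1.16. The difference between these changes was -0.49 (SE 0.14, limma adjusted p = 0.0342), short of the threshold.

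Etv5 moved the same way with less margin. Its probe (chr16:22381387-22381446, mm9) read 12.75, 12.88, 12.94 and 13.03 in dispersed myoblasts at the earlier time and 13.27, 13.20, 13.25 and 13.49 at the later. On the fiber it read 12.61, 12.75, 12.69 and 13.21 at 48 hr, the pooled preparation again the highest, and 14.01, 13.52, 13.76 and 13.47 at 72 hr. The times did not overlap in either culture. The change was 0.40 (SE 0.08, 1.32-fold, limma adjusted p = 0.00887) in dispersed and 0.87 (SE 0.17, 1.83-fold, limma adjusted p = 0.0122) in myofiber-associated myoblasts, which lie on either side of the threshold. The dispersed call was lost whichever of the 8 arrays was left out (limma adjusted p 0.0111 to 0.0277), and the myofiber-associated change passed without the pooled array (limma adjusted p = 0.00398). The difference between the changes was -0.47 (SE 0.19, limma adjusted p = 0.106).

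None of the 4 genes for proteins that damp the cascade passed the threshold over time in either culture. Spry2 came nearest, with 7.70, 8.02, 7.81 and 7.97 in dispersed myoblasts at the earlier time and 8.46, 8.29, 8.14 and 8.14 at the later. These arrays did not overlap, and the change was 0.38 (SE 0.10, limma adjusted p = 0.0226). On the fiber the change of Spry2 was 0.04 (95% interval -0.38 to 0.46).

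Dusp6 changed by 0.04 (95% interval -0.20 to 0.27) in dispersed myoblasts and by 0.37 (-0.07 to 0.82, limma adjusted p = 0.18) on the fiber. Spry4 changed by -0.01 (-0.19 to 0.17) and 0.02 (-0.29 to 0.32). Spred1 changed by 0.09 in both cultures, with intervals of -0.07 to 0.26 and -0.11 to 0.30. A dimmer probe for another Spred1 transcript rose by 0.34 in dispersed myoblasts (SE 0.07, adjusted p over probes 0.00954), where the other 2 probes of the gene gave 0.09 and 0.08.

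**Figure D2:**
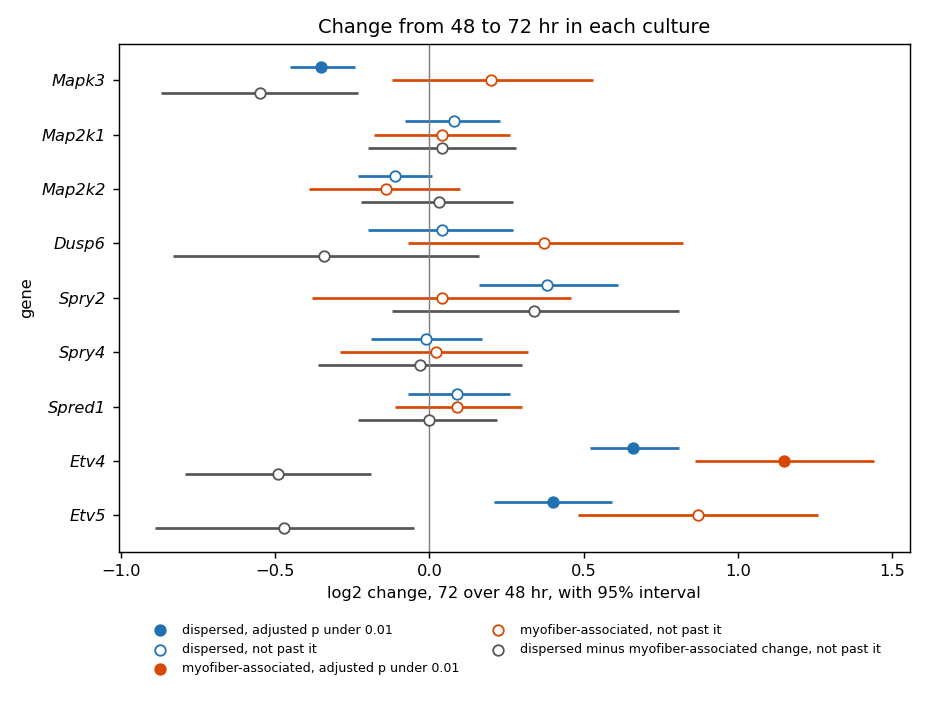
Log2 change from 48 to 72 hr (x axis) of each gene in the 2 cultures, and the difference of these changes, with 95% intervals of the limma fit; filled points passed an adjusted p of 0.01. Mapk3 (dispersed), Etv4 (both cultures) and Etv5 (dispersed) are filled, and no difference between the cultures is.

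For the difference between the cultures in the change over time, 0 of the 9 genes passed in limma, where 3.45% of all genes did. At an unadjusted p under 0.05 there were 3 in limma, Mapk3, Etv4 and Etv5, all with a more positive change on the fiber, where 34.3% of all genes passed, a share close to that of the members. With the authors' deposited log2 ratios in place of the scanner signals, 2 of the 9 passed, Mapk3 (-0.54, limma adjusted p = 0.000672) and Etv4 (-0.55, limma adjusted p = 0.00457), in a fit that leaves out the spread of the 48-hr arrays and calls 18.8% of all genes, so that 2 of 9 is near the background.

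The second comparison set the cultures against each other at the same time. At 48 hr 7 of the 9 genes differed, where 51.6% of all genes did: Spry2 was higher in myofiber-associated myoblasts, and Mapk3, Map2k1, Dusp6, Spry4, Spred1 and Etv4 were lower. At 72 hr 4 of the 9 differed, where 31.3% of all genes did, and Map2k1, Dusp6, Spry4 and Spred1 were lower. The median difference of the 9 genes, myofiber-associated minus dispersed, was -0.34 at 48 hr and -0.24 at 72 hr, beside -0.12 and -0.02 over all genes. The arrays of the 2 cultures did not overlap for 7 of the 9 genes at 48 hr and 6 at 72 hr, beside 56% and 46.5% of all genes.

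The largest difference between the cultures among the 9 genes was that of Dusp6, the ERK phosphatase. Its probe (chr10:98729985-98730044, mm9) read 13.83, 13.92, 14.03 and 14.21 in dispersed myoblasts at 48 hr and 12.54, 12.67, 12.24 and 12.99 on the fiber. At 72 hr it read 13.87, 14.02, 14.00 and 14.24 in dispersed myoblasts and 12.92, 12.91, 13.41 and 12.70 on the fiber. No myofiber-associated array reached any dispersed array at either time. The difference was -1.39 (SE 0.16, 2.62-fold lower on the fiber, limma adjusted p = 7.29e-06) at 48 hr and -1.05 (SE 0.16, 2.07-fold, limma adjusted p = 0.000145) at 72 hr.

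Spry4 stood apart in the same way. It read 9.22 to 9.49 off the fiber and 8.10 to 8.62 on it at 48 hr, and 9.22 to 9.44 against 8.21 to 8.50 at 72 hr. The difference was -1.05 (SE 0.11, 2.08-fold lower, limma adjusted p = 2.7e-06) at 48 hr and -1.02 (SE 0.11, 2.03-fold, limma adjusted p = 5.58e-06) at 72 hr. The neighboring levels within a culture, 48 and 72 hr, overlapped.

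Spry2, the other Sprouty gene, went the opposite way. Its probe (chr14:106291845-106291904, mm9) read 8.53, 9.06, 8.47 and 8.50 on the fiber at 48 hr, above all 4 dispersed arrays of that time. The difference was 0.76 (SE 0.15, 1.70-fold higher, limma adjusted p = 0.000615). At 72 hr the arrays were 8.78, 8.25, 8.84 and 8.86, of which the second lay within the dispersed range, and the difference was 0.42 (SE 0.15, limma adjusted p = 0.0365), short of the threshold. Without that array it was 0.56, with a limma adjusted p of 0.00535.

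Spred1 and Map2k1 were lower on the fiber by smaller amounts. Spred1 read 12.01 to 12.19 in dispersed and 11.72 to 11.81 in myofiber-associated myoblasts at 48 hr, and differed by -0.34 at both times (SE 0.08, limma adjusted p = 0.00118 at 48 hr and 0.00227 at 72 hr). Its second probe gave -0.35 and -0.33, while the dimmer probe for another transcript gave -0.06 and -0.01 and no call, and with the mean of its probes Spred1 did not pass at either time (limma adjusted p = 0.0197 and 0.0424). Map2k1 read 12.91 to 13.13 against 12.65 to 12.86 at 48 hr, a difference of -0.29 (SE 0.08, limma adjusted p = 0.0048), and -0.33 at 72 hr (SE 0.08, limma adjusted p = 0.00344). The Map2k1 call was lost without any 1 of 5 of the 8 arrays at 48 hr and of 3 of the 8 at 72 hr.

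For Mapk3 and Etv4 the cultures differed at 48 hr and not past the threshold at 72 hr. Mapk3 was lower on the fiber by 0.75 (log2 difference -0.75, SE 0.11, limma adjusted p = 3.49e-05) at 48 hr. Etv4 differed by -0.73 (SE 0.10, limma adjusted p = 2.76e-05) at 48 hr and by -0.24 (SE 0.10, limma adjusted p = 0.0617) at 72 hr, where the arrays still did not overlap. Etv5 differed by -0.08 (95% interval -0.38 to 0.21) and 0.39 (0.09 to 0.68, limma adjusted p = 0.0324). Map2k2 differed by 0.14 (-0.03 to 0.32) and 0.12 (-0.06 to 0.29), and its second probe was higher on the fiber at 48 hr (0.31, SE 0.07, adjusted p over probes 0.00169).

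**Figure D3:**
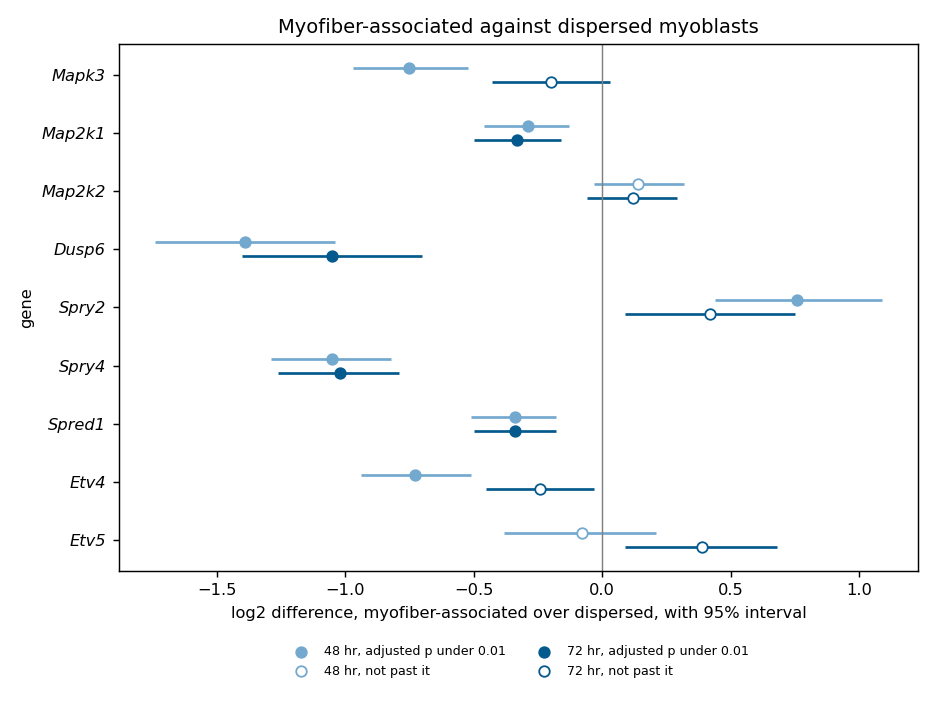
Log2 difference, myofiber-associated over dispersed (x axis), of each gene at 48 and at 72 hr, with 95% intervals of the limma fit on 16 arrays; filled points passed an adjusted p of 0.01. Dusp6 and Spry4 lie near or below -1 at both times, and Spry2 lies above 0.

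These differences stand beside others that follow the culture. The 9 genes of adult muscle fibers (myosin heavy chains, creatine kinase and others) were higher on the fiber in 9 of 9 at 48 hr and 8 of 9 at 72 hr. Their signals summed to a log2 value of 20.33 to 20.81 at 48 hr and 17.99 to 20.24 at 72 hr on the fiber, against 13.81 to 15.16 and 13.01 to 13.34 off it. At 72 hr on the fiber replicates 1 and 3 had lower sums (18.43 and 17.99) than replicates 2 and 4 (19.86 and 20.24). Etv4, Etv5, Dusp6 and Spred1 read higher on replicates 1 and 3 than on 2 and 4. The other members did not split so to 2 decimals, and a link was not tested. Among the 4 myofiber-associated 48-hr arrays, the pooled preparation read highest for Mapk3, Map2k1, Dusp6 and Etv5 and lowest for Map2k2. It had the lowest adult fiber, myoblast, early differentiation and leukocyte signals of the 4 and the highest endothelial, fibroblast, pericyte and Schwann cell ones. Its myoblast sum was 17.07 against 17.32 to 17.52 on the other 3. Its fibroblast sum was 17.52 against 16.24 to 16.56 on the other 3, a wider gap than that of the endothelial sum, 15.69 against 14.57 to 15.18. Of 16 endothelial genes, 15 fell with time off the fiber and 11 on it, and 15 were lower on the fiber at each time. The remaining gene, Kdr, was higher on the fiber at 72 hr (0.28). The summed log2 signal of the endothelial genes ran from 17.16 to 17.60 and from 15.69 to 16.20 in the dispersed groups (48, then 72 hr), and from 14.57 to 15.69 and from 13.77 to 14.09 on the fiber.

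The markers of myoblasts were present in every sample. All 9 myoblast genes, among them Pax7, Myod1 and Cdh15, were well above background on every array. Their sums were 16.94 to 17.11 (48 hr) and 17.29 to 17.71 (72 hr) off the fiber, and 17.07 to 17.52 and 17.87 to 18.04 on it. The brightest of the 9 at 48 hr was Chrna1 off the fiber (16.21) and Des on it (15.99, beside 11.95 off it). Pax7 (-0.86), Vcam1 (-0.81), Cdh15 (-0.66), Myf5 (-0.63) and Chrna1 (-0.56) were lower on the fiber at 48 hr, and only Des (4.05) was higher. A day later 3 of the 9 were higher there and 0 lower. Pax7 (1.68), Chrna1 (1.37), Cdh15 (1.32) and Sdc3 (1.26) rose with time on the fiber, and 3 of the 9 rose off it. The sum of the 5 genes of early differentiation was 12.10 to 13.56 and 11.60 to 12.04 in dispersed myoblasts and 18.51 to 18.76 and 16.61 to 18.49 on the fiber. That sum follows Myh8, the brightest of the 5 in every group, and the genes did not move together. With time in dispersed myoblasts Myog (3.92), Myh3 (3.36) and Tmem8c (1.33) rose while Myh8 (-2.22) and Mef2c (-1.50) fell. On the fiber Myh3 and Tmem8c rose with time, while the changes of Myog (-0.64), Myh8 (-1.17) and Mef2c (-2.46) were below 0 and did not pass. At 48 hr Myog, Myh8 and Mef2c were higher on the fiber than off it and Myh3 was lower, being not well above background on any of those 4 arrays, and at 72 hr the first 3 were still higher.

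Markers of other cells moved with culture and time as well. Of 9 leukocyte genes tested, 5 were lower and 1 was higher on the fiber at each time, with Tyrobp at -2.53 and -3.04 and Lyz2 at -2.53 and -3.49, while the sum stayed between 14.01 and 14.86 in all 4 groups and Itgam, bright in every group, did not pass in any comparison. With time 4 of the 9 fell and 1 rose in dispersed myoblasts, and 1 rose on the fiber. Of 4 Schwann cell genes 3 were lower on the fiber at each time and 3 fell with time in dispersed myoblasts, with sums of 12.01 to 12.38 and 10.99 to 11.34 off the fiber and 9.74 to 10.21 and 9.35 to 10.12 on it. Fibroblast sums went from 16.13 to 16.73 at 48 hr to 15.71 to 16.41 at 72 hr off the fiber, with 0 of 6 genes called, and from 16.24 to 17.52 to 15.17 to 15.98 on it, with 3 of 6 called lower. Of 6 pericyte genes 3 fell in dispersed myoblasts, with sums of 13.52 to 14.38 and then 12.84 to 13.66, and 1 rose on the fiber (12.99 to 13.33, then 13.02 to 13.23). The part of any of these lists in the results for the ERK genes was not tested.

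**Figure D4:**
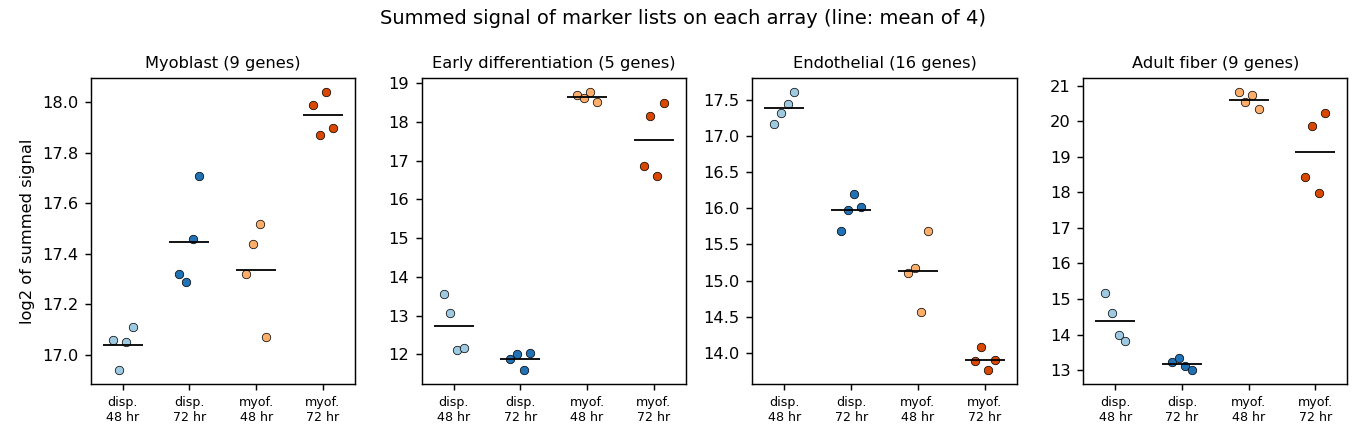
Log2 of the summed signal (y axis) of 4 lists of marker genes on each array of the 4 groups; points are arrays and the line is the mean of 4. Adult fiber signal and the sum of the early differentiation genes, of which Myh8 is the brightest, are higher in myofiber-associated myoblasts, and endothelial signal falls from 48 to 72 hr in both cultures and is lower on the fiber.

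Around the 9 genes, 105 other genes of the pathway were tested, from receptors to ERK-responsive genes. From 48 to 72 hr 25 of them changed in dispersed myoblasts, 14 higher and 11 lower (23.8%, beside 13.7% of all genes), and 7 in myofiber-associated myoblasts, 5 higher and 2 lower (6.67%, beside 5.48%). Of the 21 and 7 called genes named below, 11 and 3 kept their call whichever array was left out. In dispersed myoblasts Igf1r, Met, Kdr, Sos1, Gab1, Rasgrp3, Rps6ka3, Ets2, Elk3 and Hmga2 lost it without some array, and on the fiber Rasgrp3, Lrig1, Rps6ka1 and Areg did. At 72 hr on the fiber Fgfr4, Etv1, Areg, Rasa1 and Rps6ka1 read higher on replicates 1 and 3 than on 2 and 4. Rasgrp3 read lower on them, and Lrig1 did not split so. The change differed between the cultures for 6 of the 105 (5.71%, beside 3.45% of all genes).

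Of 13 receptor genes, 1 rose and 3 fell in dispersed myoblasts. Igf1r, the receptor for insulin-like growth factor, rose by 0.28. Kit, the stem cell factor receptor, fell by 1.40 (SE 0.13, adjusted p = 0.000273 in limma), and Met, the hepatocyte growth factor receptor, fell by 0.50. Kdr, a vascular endothelial growth factor receptor that is also 1 of the 16 endothelial genes, fell by 0.38. Its change ran from -1.14 to -0.32 under the alternatives to the processing. The changes of Igf1r (0.50) and Kit (-2.22) on the fiber had the same sign as off it, and those of Met (0.17) and Kdr (0.08) the opposite. None of these 4 passed there. On the fiber 1 rose, Fgfr4, a fibroblast growth factor receptor of myoblasts. It read 10.82, 11.05, 10.30 and 10.47 at 48 hr and 13.21, 12.49, 13.26 and 12.55 at 72 hr. All later arrays lay above all earlier ones, a rise of 2.22 (SE 0.24, 4.66-fold, limma adjusted p = 0.00141). In dispersed myoblasts it changed by 0.10 (SE 0.15), and the difference between the cultures was -2.12 (SE 0.29, limma adjusted p = 0.00109), a call kept without any 1 array.

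Of 26 genes between receptor and MEK, 4 rose and 2 fell in dispersed myoblasts. Those that rose most were Cnksr1, a scaffold protein of the Ras pathway (1.02), Sos1, which loads Ras with GTP (0.46), and Rras2, a Ras-related GTPase (0.40). Cnksr1 and Sos1 (5.61 to 5.98) stood near the filter's log2 signal of 5 at 48 hr. Under the alternatives with all arrays the change of Cnksr1 ran from 0.46 to 1.06 and lost its call in 1 of 10. That of Sos1 ran from 0.24 to 0.49 and lost it in 2 of 10. Rasgrp3, another activator of Ras, fell by 1.04 (SE 0.16, adjusted p = 0.00288 in limma), and so did Gab1, a docking protein (-0.57). The changes of Sos1 (0.49) and Gab1 (-0.19) on the fiber had the same sign, Rras2 gave 0.01, and Cnksr1 (-1.46) had the opposite sign. None of these passed there. On the fiber Rasgrp3 was the 1 gene of this list that changed, and it fell by 2.36 (SE 0.32, adjusted p = 0.0034 in limma). It read 10.38, 9.64, 9.69 and 10.13 at 48 hr and 7.28, 8.22, 6.87 and 8.06 at 72 hr. Cnksr1 stood between 4.96 and 5.34 in dispersed myoblasts at 48 hr and between 12.62 and 13.15 on the fiber, where adult fiber genes were also high.

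Of 21 genes for other inhibitors of the pathway, 4 rose and 1 fell in dispersed myoblasts. Dusp2, a nuclear ERK phosphatase, rose by 1.12 (SE 0.10, 2.18-fold, limma adjusted p = 0.000211), Spred3 by 0.81 and Rasa1, which speeds the hydrolysis of GTP by Ras, by 0.65, while Il17rd (SEF), an antagonist of fibroblast growth factor signaling, fell by 0.60. On the fiber Rasa1 rose by 1.70 (SE 0.18, 3.25-fold, limma adjusted p = 0.00141), and Lrig1, which lowers receptor levels, fell by 0.77. Changes of Spred3 (0.67) and Il17rd (-0.31) there had the same sign as off the fiber and that of Dusp2 (-0.26) the opposite, none past the threshold. Lrig1 changed by 0.02 in dispersed myoblasts. Rasa1 went from 11.58 to 11.59 at 48 hr to 12.12 to 12.43 at 72 hr off the fiber, and from 11.11 to 11.47 to 12.65 to 13.44 on it. The difference between its changes was -1.05 (SE 0.20, limma adjusted p = 0.00556), with a p of up to 0.0149 when an array was left out.

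Of 7 effector kinase genes, Rps6ka3 (RSK2) fell in dispersed myoblasts (-0.25, SE 0.05) and Rps6ka1 (RSK1) rose on the fiber by 1.39 (SE 0.19, limma adjusted p = 0.00319). Rps6ka3 changed by -0.57 on the fiber (SE 0.12), short of the threshold. Rps6ka1 changed by 0.21 in dispersed myoblasts, and the difference between its changes was -1.18 (SE 0.21, limma adjusted p = 0.00432), with a p of up to 0.0121 when an array was left out. Of 14 other MAP kinase genes, 1 changed, Mapk12 (p38 gamma), with -0.59 in dispersed myoblasts (SE 0.05, limma adjusted p = 0.000223). Its change on the fiber was -1.51 (SE 0.46, limma adjusted p = 0.0474), short of the threshold.

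Of 24 ERK-responsive genes, 5 rose and 3 fell in dispersed myoblasts, and 2 rose and none fell on the fiber, where the median change of the list was -0.36. Etv1, the ETS factor closest to Etv4 and Etv5, rose in both cultures. It read 9.65, 9.88, 9.99 and 10.02 in dispersed myoblasts at 48 hr and 10.98, 10.78, 11.01 and 11.36 at 72 hr. On the fiber it read 10.22, 10.01, 10.22 and 10.66 and then 12.81, 12.11, 12.61 and 12.05. The times did not overlap in either culture, and the rises were 1.15 (SE 0.13, limma adjusted p = 0.000654) and 2.12 (SE 0.21, limma adjusted p = 0.00111). Areg, which encodes amphiregulin, a ligand of the epidermal growth factor receptor, also rose in both, by 0.58 and 1.69. Hmga2, a chromatin protein, rose by 0.58 in dispersed myoblasts, where Ets1 (-0.56), Ets2 (-0.53) and Elk3 (-0.20), which also belong to the ETS family, fell. The changes of Hmga2 (0.85), Ets1 (-0.68) and Ets2 (-0.36) on the fiber had the same sign and that of Elk3 (0.69) the opposite. None of these passed there, and none differed between the cultures past the threshold.

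**Figure D5:**
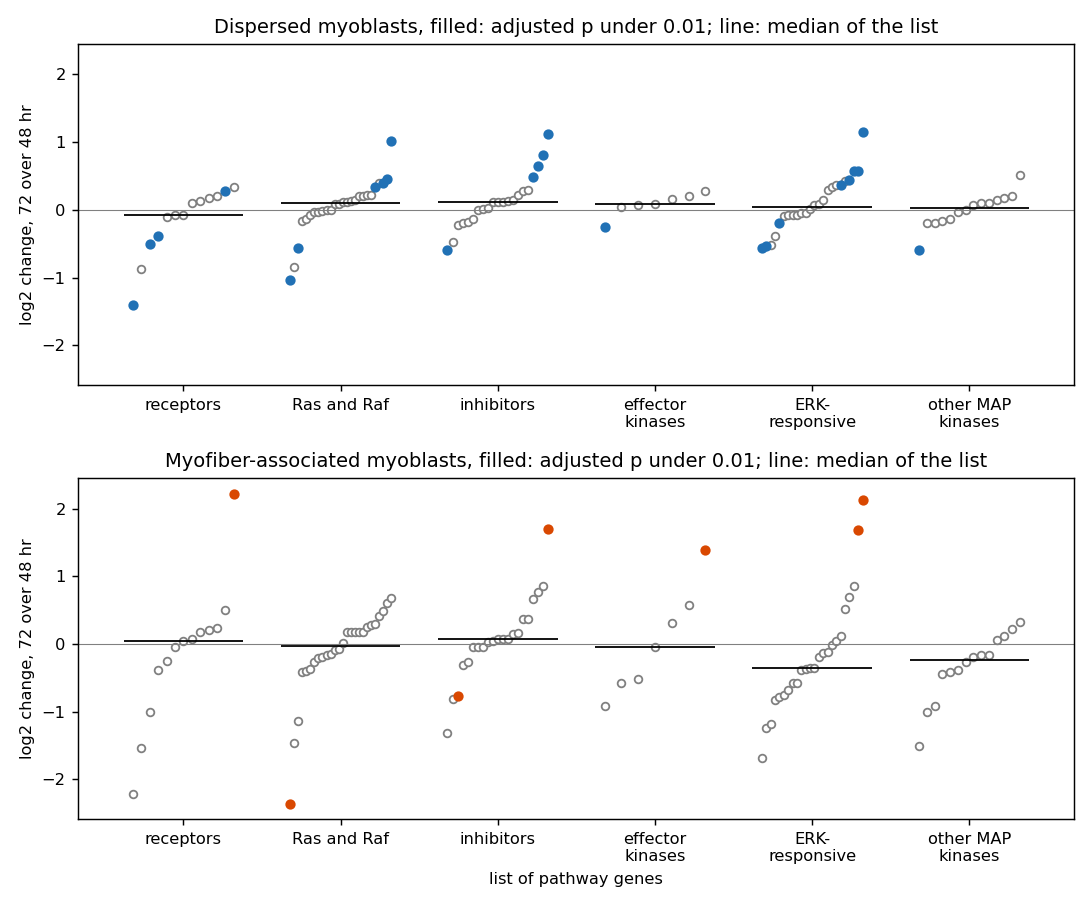
Log2 change from 48 to 72 hr (y axis) of every tested gene of 6 lists of pathway genes (x axis), ordered within each list by its change, in dispersed (top) and myofiber-associated (bottom) myoblasts; filled points passed an adjusted p of 0.01 and the line is the median of a list. Genes past the threshold lie at both ends of the lists of receptors, Ras and Raf, inhibitors and ERK-responsive genes in dispersed myoblasts.

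Profiles over the 16 arrays were set against each other by the root mean square difference of log2 values, after centring each gene on its own mean. The genes closest to Mapk3 were Rgl2, Kctd17, Galk1, Nup43 and Slc36a4, with differences of 0.09 to 0.101. Rgl2 averaged 12.32 at 48 hr and 12.03 at 72 hr off the fiber, and 11.72 and 11.81 on it. Those closest to Dusp6 were Tmsb4x, Slc2a4rg-ps, Sh3bgrl2, Rasa2 and Ajuba, with differences of 0.131 to 0.156, and Tmsb4x had means of 17.34 and 17.49 in dispersed myoblasts. Among the 9 genes the closest pair was Map2k1 and Spred1 (0.09), and Dusp6 was closest to Spry4 (0.24) and Etv4 to Etv5 (0.37). The 16 arrays share 2 slides, which these profiles follow.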

How the data were processed

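Agilent mouse arrays in one color held the RNA of 16 samples, 4 per culture and time. The authors deposited scanner files, whose processed signal is a fluorescence intensity that the scanner software had background-corrected per the file headers. They also deposited log2 ratios in which every 72-hr array is set against the average of the 48-hr arrays of the same culture, and the submitters' processing notes name limma.

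From the processed signals log2 was taken and outlier spots were dropped. The 48-hr arrays of a culture gave the average profile to which its 8 arrays were fitted by loess (span 0.3, 4 iterations), and quantile normalization over all 16 followed. Identical probes were averaged and the brightest probe stood for a gene. Genes with a median log2 signal of at least 5 were tested. Names came from the files of the myofiber-associated slide, since 1831 probes were named differently in the other slide's files, 0 of them probes of the 9 genes. Probe positions are those of mm9 in the files, and no annotation of that build was used here.

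The samr test of the methods was not run. A change over time was tested with limma on the 8 arrays of its culture, and the difference of changes and the differences between cultures on all 16, each two-sided, and p-values were adjusted by Benjamini-Hochberg over every gene tested (every probe for single probes), with a threshold of 0.01. The limma fits were tested on simulated data that gave a gene the same spread in every group. Unequal spreads between the groups, as in these data, were not simulated. An exact permutation test of 4 against 4 arrays cannot give a p under 0.0286. The number of arrays limits the precision.

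The 9 genes, the lists and the alternatives were chosen with earlier results of these data known. Named pathway genes are, per list and culture, the up to 3 largest rises and 3 largest falls past the threshold. Alternatives covered the background (normexp, offset 50), the normalization (75th percentile, or quantile without loess), both filters on low signal, averaging the probes of a gene, the slide row as a block, 1 fit of all arrays, a threshold of 0.05, the deposited ratios, leaving out each array, and, added after the data were seen, the other slide's gene names. Of the per-sample columns 0 were unused. Software was R 4.3.3 with limma 3.58.1, and Python 3.11.15 with matplotlib 3.10.9.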

Additional observations from a re-analysis of the deposited data

Results flagged for a closer look

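Of 56 sets of 4 arrays, 4 for each of the 14 probes, 3 held an array far from its group by Dixon's test at the 95% level, and chance marks about 1 in 20. Spry2 was 9.06 on replicate 8 of the myofiber-associated 48-hr group, where the gap to the next array was 0.902 of the whole range, and 8.25 on replicate 2 of the 72-hr group (0.867). The brightest Map2k2 probe was 13.26 on replicate 7 of the dispersed 72-hr group (0.884), whose arrays lie within 13.21 to 13.26.

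For 6 of the 105 other pathway genes (5.71%, beside 3.45% of all genes) the change from 48 to 72 hr differed between the cultures past the threshold in limma's interaction test, given as dispersed minus myofiber-associated change: Cnksr1 by 2.48 (SE 0.51, adjusted p = 0.0086), Fgfr4 by -2.12 (SE 0.29, adjusted p = 0.00109), Pdgfra by 1.87 (SE 0.40, adjusted p = 0.00987), Rps6ka1 by -1.18 (SE 0.21, adjusted p = 0.00432), Rasa1 by -1.05 (SE 0.20, adjusted p = 0.00556) and Rasgrf2 by -0.62 (SE 0.13, adjusted p = 0.00844). Pdgfra and Rasgrf2 did not pass over time in either culture and lie outside the rule for named genes, so they were named after their values were seen, and Pdgfra is also 1 of the 6 fibroblast genes. The 2 changes of Cnksr1 have opposite signs, 1.02 in dispersed and -1.46 in myofiber-associated myoblasts (limma adjusted p = 0.0512). Fgfr4 and Rps6ka1 had changes of 0.10 and 0.21 in dispersed myoblasts beside 2.22 and 1.39 on the fiber. With an array left out, the difference of Fgfr4 passed in 16 of 16 fits, that of Rps6ka1 in 8, of Rasa1 in 6, of Pdgfra in 4, of Cnksr1 in 3 and of Rasgrf2 in 2, with adjusted p-values of up to 0.00357, 0.0121, 0.0149, 0.0248, 0.02 and 0.0219.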

How the results depend on the processing

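No paired analysis was possible because the groups compared share no replicate numbers. Counts of the 9 genes called are given with the share of all genes called under the same setting. On the fiber over time the count was 1 (5.48%), and 2 with 75th percentile scaling (5.67%), 1 fit of all arrays (28.5%), the deposited table (18.6%) or a threshold of 0.05 (22.6%). With an array left out it was 2 without the pooled array (9.88%) and 1 without any other (1.21% to 6.83%). For the difference between the cultures in the change it was 0 (3.45%), and 2 with the deposited table (18.8%) or a threshold of 0.05 (15.4%). With an array left out it was 1, Mapk3, without the pooled array (11.6%) and 0 without any other (1.44% to 8.65%). The share over all genes rose in each of these settings where the count rose. In dispersed myoblasts the count was 3 (13.7%), 1 in 1 fit of all arrays (4.92%) and 4 at a threshold of 0.05 (26.9%). It was 2 whichever array was left out, where the share of all genes also fell (8.13% to 12.2%). The dispersed call of Etv5 was lost in 5 of the 10 alternatives with all arrays at the threshold of 0.01. Between the cultures the count was 7 at 48 hr (51.6%), also 7 at a threshold of 0.05 (64.2%), and 6 to 7 with an array left out (44.6% to 57.4%). At 72 hr it was 4 (31.3%), 6 at 0.05 (46.5%), and 3 to 4 with an array left out (24% to 30.8%). With all arrays kept, Map2k1 and Spred1 each lost their call at 48 hr in 1 of 8 alternatives, and Spred1 at 72 hr in 1 of 8. Etv4 passed in both cultures, and Dusp6 and Spry4 between the cultures at both times, under every alternative run. The changes of Spry2 and Spry4 on the fiber, 0.04 and 0.02, turned to -0.02 with the deposited table and to -0.01 with normexp. With an array left out the values that turned sign were all of uncalled changes near 0: over time in dispersed myoblasts Dusp6 ran from -0.03 to 0.11 and Spry4 from -0.06 to 0.03, on the fiber Spry2 from -0.02 to 0.18 and Spry4 from -0.05 to 0.12, and for the difference between the cultures Map2k1 ran from -0.01 to 0.08, Map2k2 from -0.02 to 0.06 (0.11 without the pooled array) and Spry4 from -0.13 to 0.04. Of 739 values of single genes under the other alternatives 681 kept direction and side of the threshold, 51 lost a call, 5 gained one and 2 turned sign. Of 752 with an array left out 596 kept both, 130 lost a call, 3 gained one and 23 turned sign. The causes were not tested.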
